A study of Mus musculus with 2 samples.

Results

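Ribosomal protein genes encode the proteins of the cytosolic ribosome, and CG methylation of 79 of them was read here from osteoblasts with and without the Tet genes. The 79 were chosen by name from GENCODE M21, as autosomal protein-coding genes called Rpl or Rps followed by a number, with an optional letter, out of 20807 autosomal protein-coding genes. Kinases of ribosomal protein S6 and genes named as pseudogenes were left out, and the X-linked members are given separately. Of the 79, 46 encode proteins of the large subunit, 30 of the small subunit and 3 of the stalk, the flexible arm on which translation factors land. A total of 72 are the standard genes of the ribosome and 7 are paralogues, copies with a similar product and often a narrower expression, namely Rpl3l, Rpl7l1, Rpl10l, Rpl22l1, Rpl36al, Rpl39l and Rps27l.

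Ribosomal protein genes are transcribed at a high rate in every growing cell, mostly from CpG islands, and CpG islands at active starts are normally free of DNA methylation. TET enzymes oxidise 5-methylcytosine and so open a route back to unmethylated cytosine. The mRNAs of standard ribosomal proteins begin with a cytosine followed by a run of pyrimidines, the 5′ terminal oligopyrimidine (TOP) motif, through which mTOR signalling controls their translation.

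Whole genome bisulfite sequencing had been run on primary osteoblasts of 3-day-old C57BL/6 mice, isolated from calvarial bone and cultured for 3 days, with 1 library from wild type (WT) mice and 1 from mice with Prx1-Cre and fl/fl alleles of Tet1, Tet2 and Tet3 (TCKO). Prx1-Cre is active in limb and part of the cranial mesenchyme, so a cell in the culture that never expressed Cre keeps its Tet genes. Bisulfite conversion does not separate 5-methylcytosine from 5-hydroxymethylcytosine. With 1 library per genotype there is no replicate check. Every test below is a 2-sided Fisher exact test on the calls of the 2 libraries and compares those libraries, not the genotypes, and the intervals (95%, Wilson for a level and Newcombe for a difference) cover counting error only.

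Calls on CG cytosines numbered 261127589 in the WT library and 223645082 in the TCKO library, with a median of 4 calls per covered cytosine in each. The autosomal level was 70.4% in WT and 76.6% in TCKO. Calls over the stretch of each Tet gene that lost reads went from 755 to 70 for Tet1, from 122 to 13 for Tet2 and from 133 to 9 for Tet3. Each stretch was picked from these same libraries because its TCKO calls were 25% or less of its WT calls. The drop follows from that choice and is no separate check of the deletion. Over the whole genes, calls went from 14737 to 11658 for Tet1, from 9452 to 7407 for Tet2 and from 10356 to 8480 for Tet3. The 8 osteoblast markers had WT levels within 1 kb of their starts of 0.613% to 71.9%, against 61.9% to 79.8% for 6 haematopoietic, 49.5% to 78.5% for 3 endothelial, 6.49% to 68.9% for 4 chondrocyte and 10.3% to 65.8% for 4 skeletal muscle markers. Bglap, which encodes the mature osteoblast protein osteocalcin, was the osteoblast marker at 71.9%.

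The starts are shown first, since the results turn on the CpG dinucleotides in them. Of the 59 members with an entry in the RefSeq promoter table (GRCm38.p6), 12 began with C and at least 4 further pyrimidines (20.3%), against 2.15% of all 15703 autosomal promoters in that table and 0 of 69 mitochondrial ribosomal protein genes, whose products serve the other ribosome of the cell. The 12 were Rpl14, Rpl15, Rpl28, Rpl35, Rpl38, Rplp2, Rps6, Rps10, Rps15a, Rps18, Rps21 and Rps27, and none of the 7 paralogues was among them. The letters searched were C at the annotated first base followed by C or T on the gene's strand, so an annotated start that is off by a base misses the motif. In the lines below, 10 bases precede the RefSeq start and the capitals mark the pyrimidine run. Rpl15, Rpl35, Rps18, Rps6 and Rps10 are shown as standard genes with the motif, and Rpl39l and Rpl10l as paralogues without it.
Rpl15 (chr14:18270967-18270996, minus strand): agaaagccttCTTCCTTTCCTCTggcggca
Rpl35 (chr2:39005112-39005141, minus strand): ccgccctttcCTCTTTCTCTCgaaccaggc
Rps18 (chr17:33955646-33955675, minus strand): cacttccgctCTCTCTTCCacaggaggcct
Rps6 (chr4:86857348-86857377, minus strand): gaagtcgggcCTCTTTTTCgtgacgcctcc
Rps10 (chr17:27635225-27635254, minus strand): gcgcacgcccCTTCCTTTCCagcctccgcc
Rpl39l (chr16:10170218-10170247, plus strand): aggcctttccggatttccggtggtcgccat
Rpl10l (chr12:66284382-66284411, minus strand): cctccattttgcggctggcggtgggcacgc

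The second set gives, from the GRCm38 genome, the 30 bases richest in CpG within 300 bp of the annotated transcription start site (TSS), with every CG in capitals, so that levels can be read against the sites that carry them. Rplp0, Rpl35, Rps18 and Rpl7l1 are starts with little or no methylation, Rpl36al is a single-exon copy without it, and Rpl39l and Rpl10l are methylated copies.
Rplp0 (chr5:115559443-115559472, plus strand): gaCGaCGtCGtcttCGggtttCGaggacCG
Rpl35 (chr2:39005614-39005643, minus strand): CGttCGaCGttCGagCGcCGaacagtggaa
Rps18 (chr17:33955818-33955847, minus strand): CGgtaCGaCGacagagaaggcCGaacCGga
Rpl7l1 (chr17:46782671-46782700, minus strand): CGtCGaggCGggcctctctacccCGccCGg
Rpl36al (chr12:69184242-69184271, minus strand): CGcaCGgCGgaaCGgCGacacCGaaCGcCG
Rpl39l (chr16:10170154-10170183, plus strand): agCGcttgctttaCGtaatcCGCGcctgCG
Rpl10l (chr12:66284259-66284288, minus strand): CGaggCGtcccCGatgCGaagatcCGcatc

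On the CG sites of these stretches, Rplp0 had 0 methylated of 28 calls in WT and 0 of 20 in TCKO. Rpl35 had 2 of 140 and 2 of 113, and Rps18 had 0 of 30 and 0 of 12. Rpl7l1 had 0 of 29 and 0 of 16, and Rpl36al 0 of 16 and 0 of 8. Both libraries were thus at or near 0 on the standard starts and on these 2 copies. Rpl39l had 15 methylated of 19 calls in WT (78.9%, 56.7 to 91.5) and 28 of 28 in TCKO (100%, 87.9 to 100). Rpl10l had 15 of 20 (75%, 53.1 to 88.8) and 10 of 10 (100%, 72.2 to 100).

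Members were short and CpG-rich. The median gene record was 3368 bp long, against 17758 bp for the other genes, and 67 of 79 had a CpG-rich start (observed over expected CpG of at least 0.6 and GC of at least 50% within 500 bp), against 45.6% of the others. A total of 27 members held 53 small nucleolar RNA genes inside their gene records, on the same strand. A divergent protein-coding gene lay within 1 kb of 16 members, and 55 had 277 named pseudogenes elsewhere in the genome. The authors kept uniquely mapped reads, and beyond 1 kb of the TSS the members' exons had 3.96 calls per CG cytosine in WT and 3.21 in TCKO, close to their introns at 4.03 and 3.47. Other genes had 4.41 and 3.63 in exons and 6.16 and 5.23 in introns.

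Within 300 bp of the TSS, standard ribosomal protein genes were nearly free of methylation in both libraries. Of 69 standard genes with at least 20 calls in each library there, 61 were under 5% in WT (88.4%) and 58 in TCKO (84.1%). A total of 38 had no methylated call in either. Of 8772 other genes with a CpG-rich start, 91.5% were under 5% in WT and 88.2% in TCKO, and 4394 had no methylated call in either. The median was 0% in both libraries, for the standard genes and for these other genes. One standard gene, Rps10, was at least 10 points higher in TCKO (1.45%, against 2.29% of the other genes with a CpG-rich start). Rpl8 alone of the 69 was at least 10 points lower, beside 56 of the 8772 other genes with a CpG-rich start. Pooled over the 72 standard genes, the level was 3.45% (3.12 to 3.81) in WT and 4.77% (4.34 to 5.25) in TCKO, a difference of 1.32 points (0.758 to 1.90). Other genes with a CpG-rich start went from 2.46% to 3.06%, a difference of 0.596 points. These 2 sets are unlike, since the standard genes were not filtered for a CpG-rich start. Rpl17 alone, whose annotated start is not CpG-rich, held 189 of the 370 methylated calls of the standard genes in WT. In TCKO it held 188 of the 406. The pooled levels and differences of the 2 sets are therefore not a like comparison.

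Several standard genes with methylation in that zone had an annotated start that lay away from the CpG island. Rpl17 had 84.8% in WT and 82.1% in TCKO, Rps2 100% of 10 calls and 88.9% of 18, Rps10 39.1% and 69.2%, Rps14 22.2% of 27 calls and 47.1% of 17, Rps24 14.1% in each, and Rpl18 13.9% and 16.5%. In these 6 genes the densest run of CpG lay downstream, whereas Rpl8 (25.5% and 13.8%), Rpl11 (19.4% and 14.8%) and Rpl5 (18.5% of 27 calls and 11.4% of 44) had it within 500 bp of the start. The principal transcript began 1124 bp downstream of the annotated start in Rps10, 1994 bp in Rps2, 3593 bp in Rps24 and 573 bp in Rps14, and the RefSeq start of Rpl18 lay 2614 bp downstream. The 250 bp window with most CG cytosines in each gene, between 1 kb upstream and 5 kb downstream of the TSS, was therefore also read. In Rpl17 that window began 2000 bp downstream and had 0 methylated of 104 calls in WT and 0 of 47 in TCKO. In Rps24 it began at 3750 bp, with 0 of 39 and 0 of 51, and in Rps2 at 1750 bp, with 0 of 58 and 0 of 2. In Rps14 it began at 1250 bp, with 1 of 37 and 0 of 26. In Rpl18 it began at 2500 bp, with 0 of 52 and 1 of 37. In Rps10 it began at 1500 bp, with 0 of 16 in WT and no call in TCKO.

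Over the densest windows of the 72 standard genes, 6 of 4089 calls were methylated in WT (0.147%, 0.0673 to 0.320) and 4 of 2960 in TCKO (0.135%, 0.0526 to 0.347). Of the 68 standard genes with calls in both libraries in that window, 58 had no methylated call in either and none was above 10% in either. In the 7 paralogues the same windows were at 33.9% (29.4 to 38.7) in WT and 46.9% (42.1 to 51.8) in TCKO, and Rpl10l, Rpl39l and Rpl3l were the 3 above 10%. The window was chosen from the sequence alone, after the levels around the annotated starts had been seen. It was read for the members only, so these levels and counts have no background from other genes and show no trait particular to the members.

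**Figure D1:**
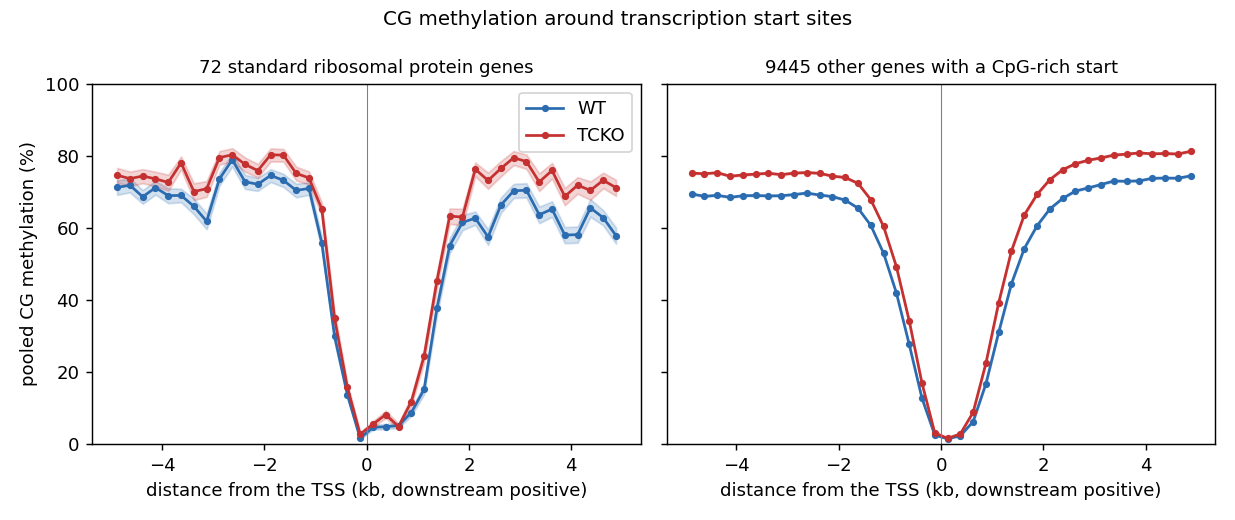
Pooled CG methylation (%) in 250 bp windows against distance from the TSS (kb, downstream positive) for 72 standard ribosomal protein genes (left) and 9445 other genes with a CpG-rich start (right); lines join WT (blue) and TCKO (red) levels and bands are 95% Wilson intervals. Both panels reach their lowest level near the TSS in both libraries. The widest gap of the left panel is in the window from 2250 bp downstream, at 57.5% in WT and 73.1% in TCKO. In the right panel the same window is at 68.2% and 76.1%.

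Upstream of the start the libraries differed more. Between 300 and 1000 bp upstream, the median over 78 members was 29.95% in WT and 39.9% in TCKO, and 18 of them were at least 10 points higher in TCKO (23.1%, against 29.9% of all genes and 28.3% of other genes with a CpG-rich start). At any size 55 of the 78 members were higher and 19 lower, and 3 were at least 10 points lower, namely Rpl14, Rps29 and Rps6. Of all 18441 genes read there, 12869 were higher, 4906 lower and 966 at least 10 points lower. Of 9164 other genes with a CpG-rich start, 6469 were higher, 2140 lower and 307 at least 10 points lower. The 18 that were higher included Rpl29 (35.9 points), Rps14 (28.6 points), Rpl31 (23.6 points), Rpl30 (23.2 points), Rps3a1 (22.4 points) and Rpl9 (22.02 points) among standard genes, and Rpl39l (67 points). Some of these rest on few calls, with 33 in WT and 31 in TCKO for Rpl29. Rps14 had 46 and 29, and Rpl30 had 52 and 57, while Rpl9 had 278 and 179. The annotated start of Rps14 also lies away from its densest CpG window, as given above. Between 300 and 1000 bp downstream, the medians were 0.424% and 0.874%, and 4 of 78 members were at least 10 points higher (5.13%, against 20.6% of all genes and 13.7% of other genes with a CpG-rich start). No test of these shares was run.

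The unmethylated stretch around the TSS, taken as the run of 100 bp windows under 20%, had a median length of 1900 bp in WT and 1700 bp in TCKO. It was shorter in TCKO for 39 members, longer for 8 and equal for 32. The share that was shorter was 49.4%, against 59.0% of other genes with a CpG-rich start. Farther upstream, from 1 to 5 kb, the members' pooled level was 70.9% in WT and 76.0% in TCKO.

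**Figure D2:**
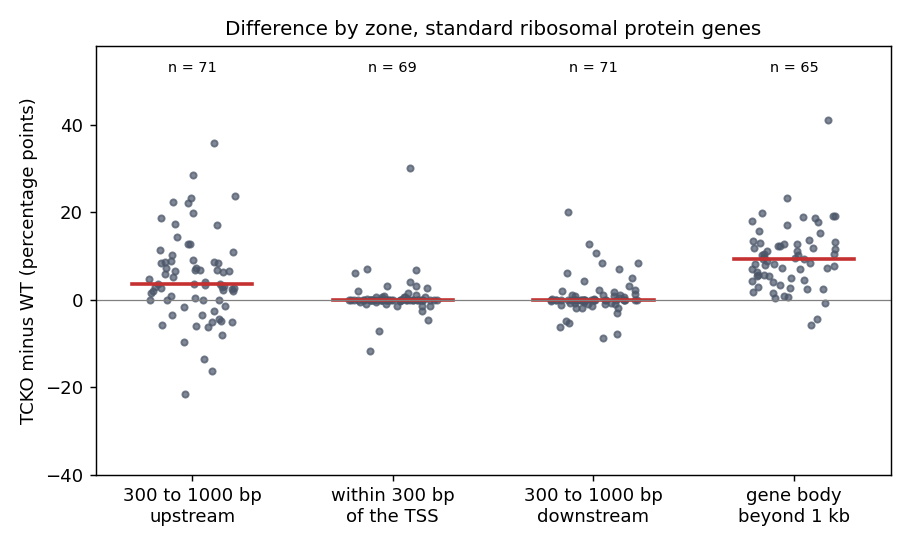
Difference TCKO minus WT in percentage points by zone around the TSS, 1 point per standard ribosomal protein gene and a red line at the median; zones hold genes with at least 20 calls in each library (50 for the gene body). Points within 300 bp of the TSS crowd at 0, while most gene bodies lie above it.

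Over the whole window within 1 kb of the TSS, which holds both the island and its shores, the members' median was 10.5% in WT and 13.9% in TCKO, with a median difference of 2.27 points, against 3.03 points for all genes and 2.16 points for other genes with a CpG-rich start. All 79 members had at least 50 calls in each library and were tested. A gene was called where its p, adjusted by Benjamini-Hochberg over 20136 genes, was under 0.05 and its levels differed by at least 10 points. By that rule 10 members were higher in TCKO (12.7%; background 17.1%) and 4 were lower (5.06%; background 1.69%). At any size, 58 of 79 were higher (73.4%; background 72.5%). Pooled, the level was 15.8% (15.4 to 16.2) in WT and 19.8% (19.3 to 20.3) in TCKO, a difference of 3.998 points (3.38 to 4.62).

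**Figure D3:**
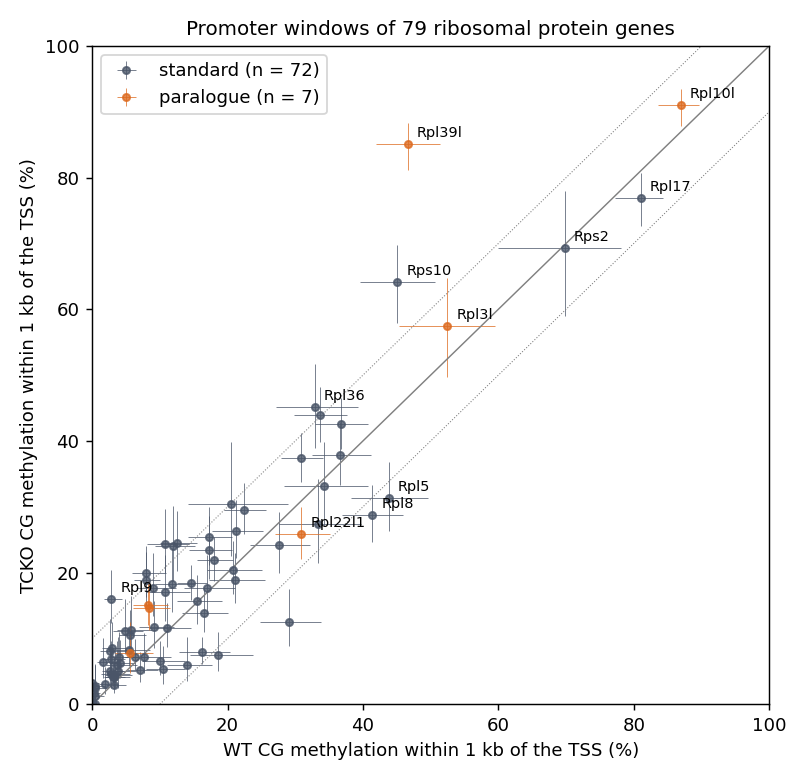
CG methylation within 1 kb of the TSS in TCKO (%) against WT (%) for 72 standard genes (grey) and 7 paralogues (orange), with 95% Wilson intervals; the solid line marks equal levels and the dotted lines a difference of 10 points. Most genes lie near the lower left, Rpl39l stands far above the line at 46.6% and 85.1%, and Rpl10l, Rpl17 and Rps2 lie near the line at high levels.

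Among large subunit genes, 7 were called higher. Rpl39l, a paralogue of the tunnel protein Rpl39 known from testis, went from 46.6% of 414 calls to 85.1% of 369 (38.5 points, Fisher exact test, adjusted p = 1.58e-27). Rpl37a went from 10.8% to 24.4% (adjusted p = 6.31e-05), Rpl9 from 2.81% to 16.0% (adjusted p = 4.41e-11) and Rpl36 from 32.9% to 45.2% (adjusted p = 0.0315), all by the exact test. Rpl23a, at the mouth of the exit tunnel, went from 11.9% to 24.0%, Rpl23 from 12.5% to 24.5% and Rpl31 from 8.0% to 19.9%. In these 6 standard genes the 300 bp zone was between 0% and 3.16% in both libraries.

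Among small subunit genes, 3 were called higher. These included Rps10, which went from 45.1% to 64.1% (19.01 points, exact test, adjusted p = 1.12e-04), and Rps13, which went from 7.91% to 18.8%. The annotated window of Rps10 lies upstream of its island, as described above. In Rps13 the 300 bp zone was at 0% in both libraries.

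Standard genes called lower were 4, and 3 are described. Rpl8, near the peptidyl transferase centre, fell by 12.6 points, from 41.4% to 28.7% (exact test, adjusted p = 0.00110). Rpl5, which carries 5S rRNA into the ribosome, fell by 12.5 points, from 43.8% to 31.4%. Rpl34 fell by 11.2 points, from 18.7% to 7.44%.

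The calls of a window were not spread evenly between island and shore in the 2 libraries, and most of the 14 differences changed with the weight given to each cytosine. In Rpl8 the shore upstream held 247 of 457 calls in WT and 137 of 414 in TCKO, and its level there was 65.6% and 72.3%. In Rpl36 the same shore held 103 of 231 calls and 150 of 228, at 73.8% and 68.0%. When each cytosine called in both libraries was given equal weight, an alternative added after the data were seen, Rpl8 had a difference of 1.88 points and Rpl36 of -1.98 points. Under it 4 members were at least 10 points higher, Rpl39l (40.2 points), Rps10 (18.4 points), Rpl3l (13.0 points) and Rps14 (12.1 points), and none was at least 10 points lower. That weighting has no test.

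The paralogues covered a wide range within 1 kb of the TSS, from 5.60% to 86.9% in WT. Rpl10l, a single-exon copy of the X-linked Rpl10 used in male germ cells, was at 86.9% of 474 calls in WT and 91.0% of 423 in TCKO. Rpl3l, the copy of Rpl3 made in striated muscle, was at 52.4% and 57.4%. Neither difference passed the exact test (adjusted p = 0.149 and 0.594). Rpl22l1 was at 30.9% and 25.8%, with 0 methylated of 165 and of 158 calls within 300 bp of its start. Rpl36al, the single-exon copy of the X-linked Rpl36a, was at 8.40% and 14.7%, Rpl7l1 at 8.24% and 15.1%, and Rps27l, a copy induced by p53, at 5.60% and 7.85%. All methylated calls of Rpl36al lay 300 to 1000 bp downstream, at 24.1% of 137 calls in WT and 25.9% of 185 in TCKO. With equal weight per cytosine called in both libraries, the differences of Rpl36al, Rpl7l1 and Rps27l were 0.356, 2.22 and -0.0217 points. The 2 single-exon copies therefore lay at opposite ends, with Rpl10l at 85.6% and 93.1% within 300 bp of its start and Rpl36al at 0% in both libraries. Rps27rt, another single-exon copy that the naming rule does not take, was at 84.0% and 86.5% within 1 kb.

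Along Rpl39l the difference lay upstream of and across the start. In the window from 750 bp upstream, 7.69% of 39 calls were methylated in WT and 76.5% of 34 in TCKO. In the window from 250 bp upstream the values were 45% of 80 calls and 93.0% of 100, and in the first 250 bp downstream 46.3% of 67 and 96.0% of 50. From 500 bp downstream the order turned, with 85.2% of 54 calls in WT and 72.2% of 36 in TCKO. The rest of the gene was at 81.4% and 81.6%. From 1 kb upstream to 500 bp downstream, Rpl39l was lower in WT than in TCKO in each window, and from 3000 to 4500 bp downstream the windows with calls differed by under 6 points.

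**Figure D4:**
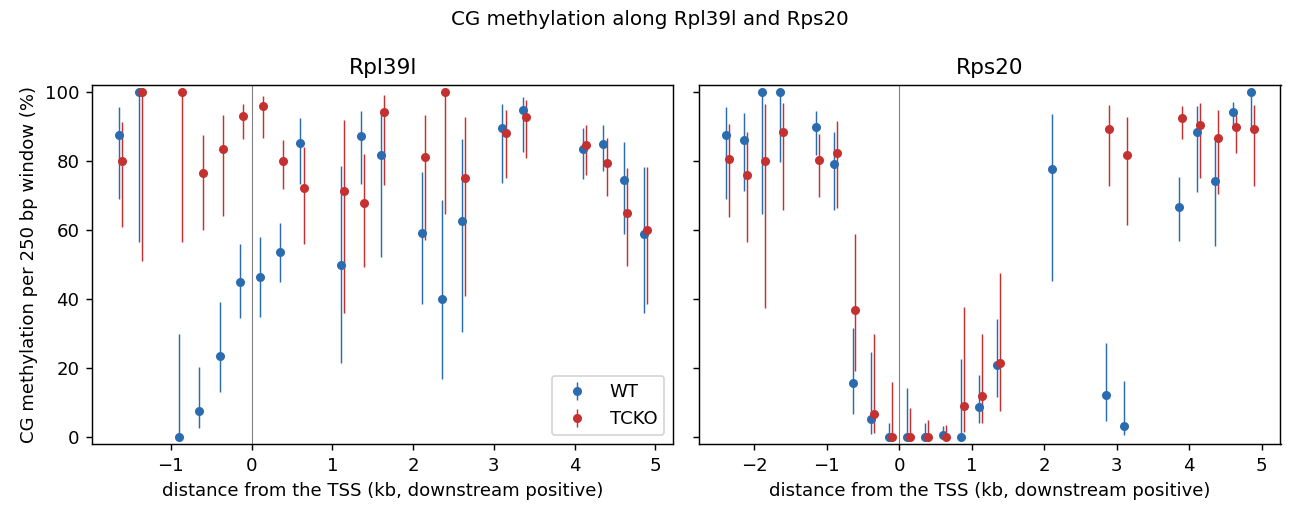
CG methylation (%) in 250 bp windows with at least 4 calls against distance from the TSS (kb, downstream positive) for Rpl39l and Rps20, WT in blue and TCKO in red, with 95% Wilson intervals. Rpl39l differs around its start, with 46.3% in WT and 96.0% in TCKO just downstream, while Rps20 is at 0% there in both and differs near its far end, with 12.1% in WT and 89.3% in TCKO from 2750 bp.

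Gene bodies, taken as the gene record beyond 1 kb of the TSS, were higher in TCKO in nearly every member. Of the 70 bodies with at least 50 calls in each library, 67 were higher at any size (95.7%; background 87.8%; other genes with a CpG-rich start 96.0%) and 28 were called higher (40%; background 15.0%). None was called lower (background 0.491%). The 9 bodies not tested were those of Rpl10l, Rpl28, Rpl29, Rpl36, Rpl36al, Rplp1, Rps15, Rps21 and Rps27. The median level was 62.9% in WT and 73.7% in TCKO, with a median difference of 8.59 points, against 5.89 points for all genes. Pooled, the members went from 60.7% to 69.996%, a difference of 9.27 points (8.51 to 10.03), and the other genes from 73.3% to 80.3%, a difference of 7.01 points. The bodies of Rpl17, Rpl18, Rps2, Rps10, Rps14 and Rps24 include the CpG-dense windows downstream of the annotated start given above. Their WT body levels ran from 7.53% in Rps2 to 60.5% in Rps14.

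Members' bodies are short, with a median of 318.5 calls in WT against 2023 for other genes, and fewer calls widen the scatter of differences around the median. Other genes under 6 kb with a CpG-rich start, a comparison chosen after the data were seen, had a median of 323.5 calls. Of their 1058 tested bodies 26.7% were called higher, with a median difference of 5.45 points, and pooled they went from 57.7% to 63.6%, a difference of 5.89 points. By the adjusted p alone, 39 of 70 members were higher, beside 69.5% of all genes, so the members' share was then below the background. No test of the members against these genes was run, and how far depth bears on the called share was not tested.

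**Figure D5:**
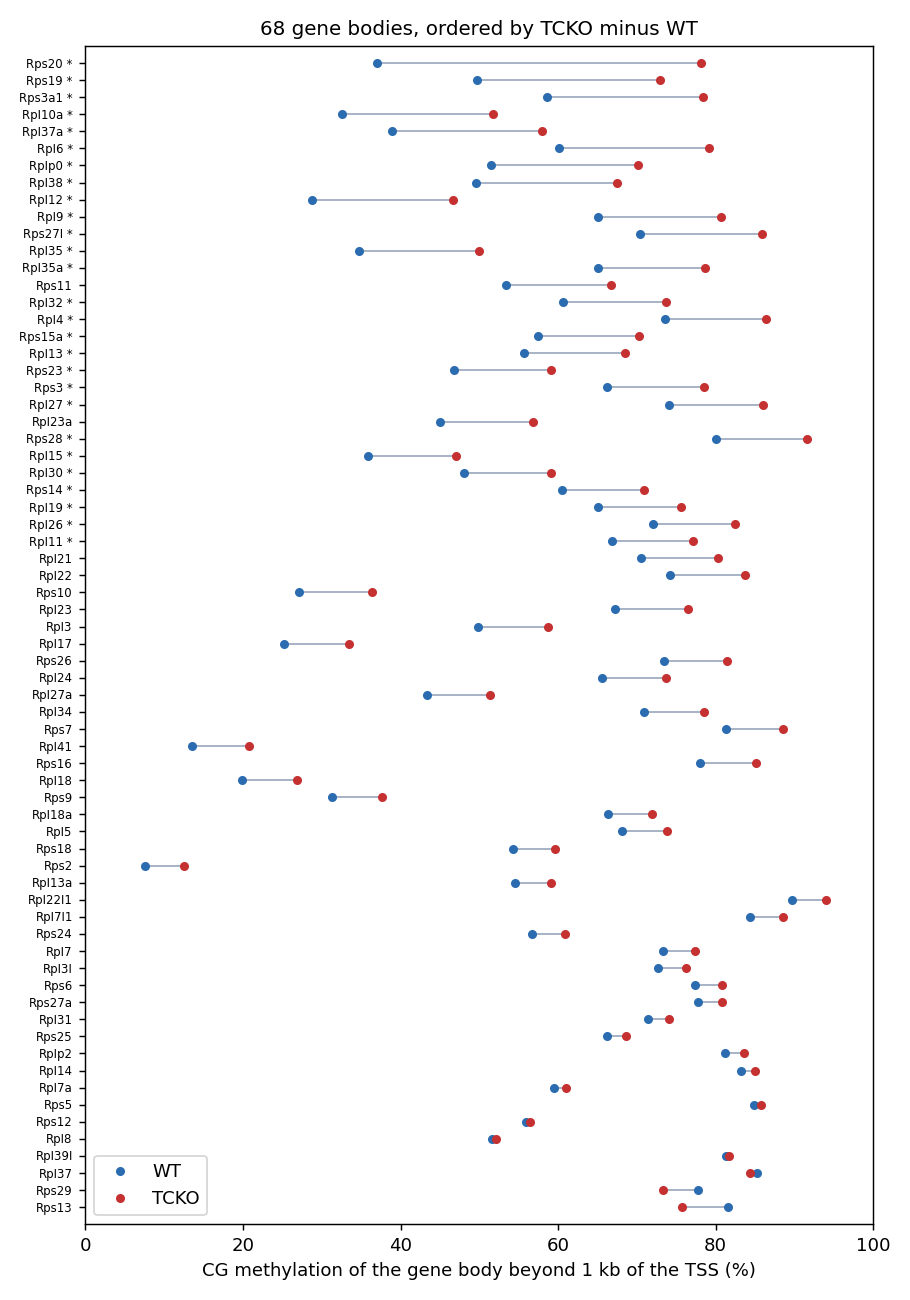
CG methylation (%) of 68 of the 70 tested gene bodies beyond 1 kb of the TSS in WT (blue) and TCKO (red), ordered by TCKO minus WT; an asterisk marks the genes called higher. Rps20 has the widest gap, from 37.0% to 78.1%, and Rpl37, Rps29 and Rps13 at the foot are lower in TCKO without passing the test.

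Among small subunit bodies, 10 were called higher. Rps20, a protein of the head of the subunit, had 37.0% of 311 calls in WT and 78.1% of 242 in TCKO, the largest body difference among members (41.1 points, exact test, adjusted p = 5.74e-22). Rps19, the gene most often mutated in Diamond-Blackfan anaemia, went from 49.7% to 72.9% (adjusted p = 4.20e-08, exact test) and Rps3a1 from 58.6% to 78.4% (adjusted p = 7.94e-08, exact test). A further 6 were Rps27l, Rps15a, Rps23, Rps3, Rps28 and Rps14, from 10.5 points in Rps14 to 15.6 points in Rps27l, which was the only paralogue called in its body.

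Among large subunit bodies, 17 were called higher. Rpl10a went from 32.6% of 132 calls to 51.7% of 87 (19.1 points) and Rpl37a from 38.9% to 57.99% (19.1 points). Rpl6 went from 60.2% to 79.1%, Rpl38, the gene mutated in the Tail-short mouse with its skeletal defects, from 49.5% to 67.5%, and Rpl12 from 28.8% to 46.6%. The other 12 were Rpl9, Rpl35, Rpl35a, Rpl32, Rpl4, Rpl13, Rpl27, Rpl15, Rpl30, Rpl19, Rpl26 and Rpl11, from 10.3 points in Rpl11 to 15.7 points in Rpl9. The 5 smallest or most negative differences were in Rps13 (-5.86 points), Rps29 (-4.44 points), Rpl37 (-0.879 points), Rpl39l (0.277 points) and Rpl8 (0.467 points), none of which passed the test.

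Of the 3 stalk genes, Rplp1 had 0% in both libraries within 300 bp of the TSS, Rplp2 2.06% and 3.03%, and Rplp0 4.13% and 10.3%. Within 500 bp Rplp2 went from 4.22% to 19.2% (exact test, adjusted p = 0.00659), which passed the call rule although its 1 kb window did not. When each cytosine called in both libraries was given equal weight, the 1 kb window of Rplp2 had a difference of -1.33 points. The Rplp0 body, of the protein that anchors the stalk, was called higher, from 51.5% to 70.1% (exact test, adjusted p = 6.66e-05), and that of Rplp2 had a difference of 2.38 points.

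Members that host a small nucleolar RNA and members that host none had median body differences of 9.27 points over 27 genes and 8.06 points over 43. Members with a divergent gene had 10.1 points over 14 bodies and the rest 8.19 points over 56. Beyond 1 kb of the TSS, exons went from 61.8% to 71.6% and introns from 59.5% to 68.3%. The 3 longest genes, Rps14, Rpl11 and Rpl3, had body differences of 10.5, 10.3 and 8.90 points.

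Differentially methylated bins were sought as 200 bp bins with at least 4 CG cytosines, a difference above 40 points and an adjusted p under 0.05, where cytosines of the bin averaged 4 or more reads in both libraries. Of 2444635 bins tested, 71585 were higher in TCKO (hyper-CG-DMR bins) and 839 lower. One member, Rpl7l1, had a hyper bin within 1 kb of its TSS (1.27%; background 4.31%), and 65 members had a testable bin there. In the gene body 7 members had one (8.86%; background 34.0%), in gene records with the shorter median length given above, and within 5 kb of the TSS 13 did (16.5%; background 18.6%). No member had a bin that was lower in TCKO in any of these places (background 0.0577%, 0.822% and 0.264%).

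The bins of 6 members lay in exons or introns within 5 kb of the start. The Rps20 bin (chr4:3832601-3832800, an exon) went from 6.45% of 31 calls to 70.8% of 24, and it spans the boundary of the 250-bp windows of Rps20 from 2750 and 3000 bp. The Rpl10a bin (chr17:28330401-28330600, an exon) went from 7.41% of 27 calls to 65.2% of 23. The Rpl6 bin (chr5:121205601-121205800) went from 10.1% to 54.5%, the Rpl4 bin (chr9:64178201-64178400) from 28.6% to 75.5% and the Rpl7l1 bin (chr17:46781601-46781800) from 5.56% to 54.3%, all 3 over exons. In Rps14 an intron bin centred 3602 bp downstream of the start, with 12 CG cytosines, went from 5.00% of 80 calls to 61.0% of 77, and 2 further intron bins passed. Rpl11 had 1 intron bin 24528 bp downstream of its start.

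Outside the gene records, 7 members had hyper bins within 5 kb, namely Rpl10l, Rpl13, Rpl27a, Rpl29, Rplp1, Rps9 and Rps12. The largest difference was upstream of Rplp1, centred at -2958 bp from its TSS and inside the neighbouring gene Kif23 (chr9:61917401-61917600), from 14.0% of 43 calls to 90.9% of 33. A bin upstream of Rpl13 (chr8:123100201-123100400) went from 0% of 31 calls to 68.2% of 22. A bin centred at -4499 bp from the Rpl10l TSS (chr12:66288801-66289000) went from 33.3% to 81.5%, while Rpl10l itself was above 85% in both libraries. The stretches richest in CpG from 3 of these bins are printed below from GRCm38, on the strand of the member, with CG in capitals, because they show the sites of bins that differed in or near Rps20, Rpl7l1 and Rplp1. The Rplp1 stretch lies in a second bin beside the one above (chr9:61917601-61917800), which went from 35.8% of 81 calls to 87.5% of 64.
Rps20, in the gene (chr4:3832601-3832630, minus strand): gctgttttagaaatgCGacctagtaattac
Rpl7l1, in the gene (chr17:46781715-46781744, minus strand): CGgattttactaaaCGgtgttCGttgaact
Rplp1, upstream (chr9:61917623-61917652, minus strand): CGgcaccagaagacCGtttttactCGtgtt

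On these sites, Rps20 had 1 methylated of 13 calls in WT and 7 of 11 in TCKO, Rpl7l1 had 3 of 54 and 19 of 35, and Rplp1 had 13 of 59 and 42 of 48. Compared with the start stretches above they hold 1 to 3 CG each instead of 5 to 8.

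The X-linked ribosomal protein genes and those with other names were read in the same way. Within 300 bp of the TSS, Rpl10, Rpl39, Rpsa, Fau and Rack1 were at 0% in both libraries, Rpl36a at 0% and 2.44%, and Rps4x at 10% of 20 calls and 16.7% of 12. Rpsa was called higher within 1 kb, from 22.7% to 36.7%, and Rack1 was at 0% of 512 calls and 0.313% of 320.

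Lists of other translation genes gave the following counts within 1 kb of the TSS, against the same backgrounds of 17.1% higher and 1.69% lower. Of 78 mitochondrial ribosomal protein genes 13 were called higher and 0 lower, led by Mrpl23 (14.6% to 40.8%), Mrpl33 (32.1% to 57.5%) and Mrps16 (11.4% to 28.1%), with a median difference over the list of 3.84 points. Of 65 genes named Eif or Eef followed by a number, 6 were higher and 3 lower, with a median of 2.36 points. They were led by Eef1a1 (52.8% to 74.5%), Eef2k (21.5% to 38.0%) and Eef1akmt2 (14.7% to 28.9%). The name rule takes translation factors and also enzymes that modify them, such as Eef2k and Eef1akmt2. Of 58 ribosome biogenesis genes 4 were higher and 2 lower, led by Rrp9 (18.3% to 41.2%), Gnl2 (64.7% to 86.9%) and Ltv1 (43.2% to 56.7%), with a median of 0.936 points. In gene bodies, 8 of 74, 16 of 64 and 5 of 56 were called higher (background 15.0%), and the lists' median differences were 4.57, 6.21 and 5.78 points. Their bodies had a median of 868.5, 2060 and 1748 calls in WT, against 318.5 in the ribosomal protein genes, of which 28 of 70 were called higher.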

How the data were processed

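CG methylation was measured by WGBS in 1 WT and 1 TCKO library. BSMAP 2.74 had placed the reads on GRCm38 with up to 2 mismatches, and ambiguous reads had been dropped. The files deposited by the authors give raw counts for both strands of each CG site, namely its methylated calls and its calls in total. Duplicate removal is not given in the sources used here. Duplicates or uneven bisulfite conversion would shift levels and make the counting intervals too narrow.

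Levels here were methylated calls over all calls pooled in a region, placed with GENCODE M21 and the GRCm38 sequence, in Python 3.11.15 with numpy 2.4.6, pandas 2.3.3, scipy 1.17.1 and numba 0.67.0. The Fisher exact test was adjusted by Benjamini-Hochberg over 20136 promoters, 19559 bodies or 2444635 bins, with at least 50 calls per region and library, and the code was tested on simulated data. At the median of 4 calls a single cytosine is known coarsely, so regions were compared.

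Members and lists were chosen with earlier results of these data known. Text names members called in promoter or body, those at the extremes of level or difference, paralogues, stalk genes, members with a hyper-CG-DMR bin within 5 kb, the 3 longest genes, and the 3 genes of each translation list with the largest promoter difference. Members named for their start, zone, shore or equal-weight values (such as Rps24, Rpl18, Rps6 and Rpl30) were chosen after the values were seen. Alternatives changed the window, start, depth, strand, weighting and thresholds. Some genes that entered the counts are not reported here by name.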

Additional observations from a re-analysis of the deposited data

How the results depend on the processing

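Against 10 promoters higher (17.1% of all genes) and 4 lower, 500 bp either side gave 2 and 1 (8.50% of all genes higher), 2 kb either side 18 and 2 (23.95%), the mean of single cytosines 2 and 0 (16.9%), and the mean of cytosines called in both libraries 4 and 0 (15.4%). By adjusted p alone 22 were higher (24.5% of all genes), with at least 4 calls per cytosine in each library 0 were lower, and with the RefSeq start 1 was lower. The pooled promoter difference of 3.998 points became 2.35 with 500 bp, 5.62 with 2 kb, 6.33 with at least 4 calls, 2.20 with single cytosines and 1.73 with cytosines called in both. Its direction held in each of these.

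In bodies, 28 higher became 13 with introns alone, of 42 tested (16.8% of all genes), and 0 lower became 1 with plus-strand cytosines, 2 with single cytosines, 1 with cytosines called in both and 2 over the whole gene. The pooled body difference of 9.27 points became 7.998 with at least 4 calls, 8.36 on the plus strand, 10.2 on the minus strand, 10.9 with single cytosines and 8.15 over the whole gene. Members with a hyper bin within 1 kb, in the body and within 5 kb numbered 3, 9 and 22 with a mean of 1 read, 0, 0 and 1 with 10 reads, and 7, 13 and 28 above 20 points.

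Single genes that reversed included Rpl8 with at least 4 calls (2.80 points) and with cytosines called in both (1.88), Rpl36 with the latter (-1.98), the Rpl15 body with at least 4 calls (-0.523), and over the whole gene Rpl13 (-2.64) and Rpl6 (-0.749). The cause was not tested. The RefSeq start and the mean of cytosines called in both libraries were chosen after seeing the data. The stretch lengths kept their order under limits of 10% and 50%. No paired analysis was possible because each genotype has 1 library, and for the same reason no replicate could be left out. Depth limits short bodies and islands: 9 bodies had under 50 calls in a library.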
